A study of Ananas comosus with 9 samples.

Results

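Mature pineapple peel at 120 days after flowering (DAF) was compared with young peel at 60 DAF, using the 3 RNA-seq libraries of each age. Pineapple is *Ananas comosus*, and the labels give the tissue as peels and the age of the fruit. They name no cultivar, treatment or field condition. Whether each library stands for its own fruit or plant is not in the labels, so p-values reflect the spread of these libraries alone, which may be technical. The series also holds 3 libraries of 90 DAF, which entered the fit as a group of their own and are quoted where they bear on a gene. The genes compared were all those with at least 1 FPKM, the count of fragments scaled to transcript length and library size, in at least 3 of the 9 libraries. This left 16791 of the 26730 gene models of the deposited table.

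Fruit peel is a layered organ. Its epidermis makes a cuticle of cutin and wax, and the green layers beneath it carry out photosynthesis while the fruit is young. During maturation a peel typically loses chlorophyll, its cells stop enlarging, and pectin and glucan in the walls are remodelled, while volatile terpenes and esters may accumulate. Sugars, organic acids and nitrogen compounds are redistributed over the same period, under the control of auxin, gibberellin, cytokinin, abscisic acid, brassinosteroid and ethylene.

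Library totals ran from 35038248 to 38899506 counts at 60 DAF and from 39160824 to 44898100 at 120 DAF. The 10 most abundant genes took 7.06 to 8.71% of counts at 60 DAF and 9.85 to 13.1% at 120 DAF. Libraries of 1 age correlated at r = 0.937 to 0.947 at 60 DAF and 0.925 to 0.941 at 120 DAF, across genes on log2 counts scaled to depth, and libraries of different ages at 0.845 to 0.886. Of the tested genes, 22.5% overlap another gene model of the table on the same contig. Neither a counting rule nor the use of strand is stated in the labels or the table's header, so reads of overlapping models, and of near-identical copies in multigene families, cannot be told apart with certainty.

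At an adjusted p under 0.05, edgeR called 1590 of 16791 genes, which is 9.47% of those tested. Of these, 714 were higher at 120 DAF (4.25%) and 876 were lower (5.22%), and 4519 genes had an unadjusted p under 0.05. Among the called genes, falls were larger than rises. Of the 876 lower genes, 472 changed at least 4-fold (53.9%), against 210 of the 714 higher genes (29.4%). The lower genes were also less abundant, at a median of 12.1 FPKM at 60 DAF, against 63.9 FPKM at 120 DAF for the higher genes. The part of level in the size of these changes was not tested. The median log2 fold change was 1.38 among the higher genes and -2.11 among the lower genes, and it was -0.01 over all genes tested. The FPKM ranges of the ages did not overlap for 1576 of the called genes, 99.1%, against 43.4% of all tested genes. Ranges apart are thus no separate evidence for a called gene, and some of the rules for naming genes required them. Among the called genes, 353 carried no annotation of any kind in the deposited table.

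The balance of rises and falls depended on the scaling of the libraries. With total counts in place of TMM, the median of all genes moved from -0.01 to -0.29, and 381 genes were called higher and 1506 lower. With upper-quartile scaling the median was -0.11 and the split was 480 to 961, and limma on log2(FPKM + 1), which carries no TMM scaling, gave 465 to 1602. FPKM carry none of these corrections, so ratios of FPKM differ from the fold changes of the fit. Where a named gene loses its call with total counts, that value is given beside the result. It is also given for some groups whose direction or count changes. Each is to be read against the shift of the median. Other groups change as well. Lower calls went from 22 to 30 with total counts among microtubule genes and from 9 to 13 in auxin signalling. They went from 18 to 26 among ADP-binding genes and from 7 to 11 among channel genes. The higher counts of these lists did not change. Single libraries also moved the counts. The calls higher and lower were 284 and 456 without 60 DAF replicate 1, 135 and 257 without replicate 2, and 162 and 285 without replicate 3. Leaving out 120 DAF replicate 1 gave 197 and 294, replicate 2 gave 549 and 742, and replicate 3 gave 238 and 347. Leaving out 90 DAF replicate 2 gave 1188 and 1264. Calls that held in the same direction without any 1 of the 9 libraries numbered 115 higher and 205 lower, an alternative added after the data were seen.

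**Figure D1:**
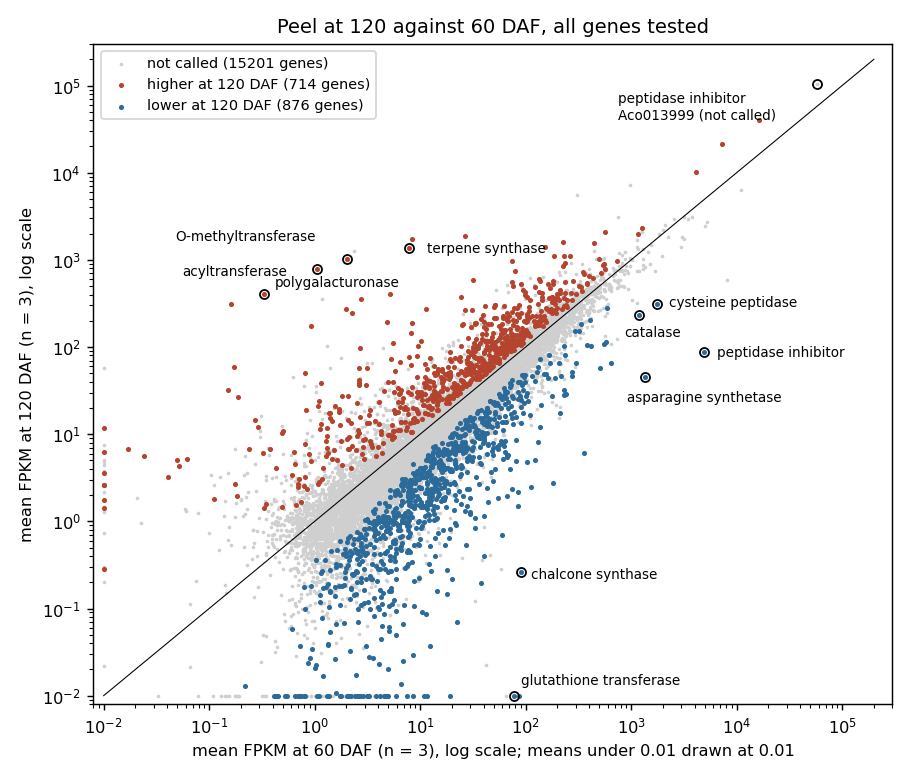
Mean FPKM of each of the 16791 tested genes at 60 DAF (horizontal, log scale) and 120 DAF (vertical, log scale), with 714 genes called higher in red, 876 called lower in blue and the line of equal values in black. The called genes at the greatest distance from the line are more often below it than above it, with 472 lower and 210 higher genes past a 4-fold change.

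Markers of several tissues were checked against the label. Summed FPKM of 24 antenna proteins, 18 of them tested, was 124 to 252 at 60 DAF and 36.8 to 56.1 at 120 DAF, so transcripts of green tissue were present at both ages. Of the 4 kinds of epidermal markers, 3-ketoacyl-CoA synthases summed to 157 to 195 FPKM at 60 DAF and 73 to 206 at 120 DAF, and fatty acyl-CoA reductases to 52.2 to 70.7 and 45.5 to 47.4. CER1 alkane synthases summed to 14.5 to 25.6 and 6.81 to 22.2, while CYP86A omega-hydroxylases were higher at 120 DAF, at 0.646 to 2.03 and 11.8 to 23.6, with 1 of 2 tested genes called. Of lignified and vascular markers, laccases summed to 71.7 to 98.5 and 48.8 to 227, with none of 5 called. Cellulose synthases summed to 544 to 653 and 302 to 453, in FPKM that carry no TMM scaling. Of these, 1 of 17 was called lower, a share of 5.88% near the 5.22% of all genes, and the median log2 fold change was -0.18. The 1 gene described as a sucrose transporter, Aco000269 (SUC4), was taken as a marker of sieve and companion cells. It was higher, at 24.8 to 38.3 and 67.0 to 84.3 FPKM. Its description does not tie it to those cells, and whether it marks them was not tested. Among dividing-cell genes, 2 of 38 nucleosome genes and 0 of 50 genes of the DNA replication map were called, and the summed FPKM of the replication map was 1334 to 1413 at 60 DAF and 1229 to 1432 at 120 DAF. Seed-type nutrient reservoir genes, a term that also covers germin-like proteins of other tissues, summed to 214 to 320 and 166 to 207, with 22 of 54 genes at 0 in all 6 libraries, and lipid storage body genes were higher at 120 DAF, at 1.38 to 3.89 and 8.48 to 15.6 FPKM, with the 1 tested gene called. In bulk tissue, fewer cells of a type and less RNA per cell cannot be told apart, and the part of changing cell composition in the results below was not tested.

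**Figure D2:**
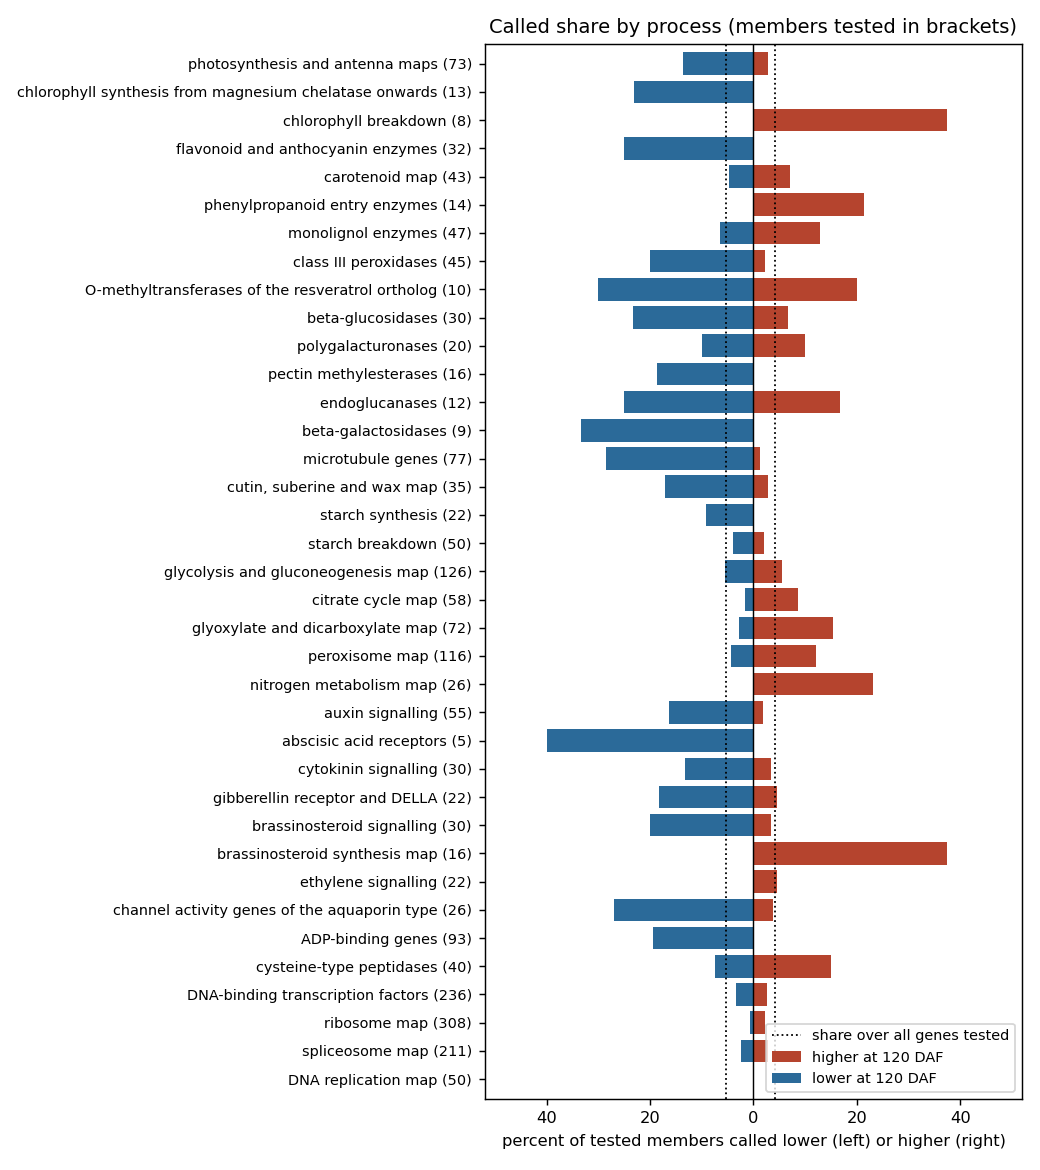
Share of the tested members of each process that was called lower (blue, left) or higher (red, right) at 120 against 60 DAF, in percent, with the number tested in brackets and dotted lines at the shares over all genes, 5.22% lower and 4.25% higher. Microtubule genes, peroxidases, flavonoid enzymes and photosynthesis genes lie mostly to the left, and chlorophyll breakdown, nitrogen metabolism and the glyoxylate map mostly to the right.

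Genes of photosynthesis were lower more often than higher. In the photosynthesis and antenna maps, of 73 tested members, 2 were called higher and 10 lower at 120 DAF, with a median log2 fold change of -1.19, and all 5 called antenna proteins, which bind chlorophyll and pass light energy to the photosystems, were lower. The oxygen-evolving enhancer gene Aco006719 measured 101, 298 and 146 FPKM at 60 DAF and 4.54, 0.512 and 3.25 FPKM at 120 DAF (log2 fold change -5.72 ± 1.25, adjusted p = 0.0305). The 3 mature libraries lay far below the 3 young ones, without overlap. A second oxygen-evolving subunit, Aco008684, gave 65.4, 133 and 111 FPKM at 60 DAF and 8.62, 1.19 and 4.43 FPKM at 120 DAF (log2 fold change -4.13 ± 0.88, adjusted p = 0.0284), and the gene of the photosystem II 22 kDa protein, Aco017705, which dissipates excess light as heat, gave 13.2, 31.2 and 9.55 and then 0.265, 0.181 and 0 FPKM (log2 fold change -6.53 ± 1.25, adjusted p = 0.0202). Both were lower in every mature library than in any young one. The antenna gene Aco001181 had 1076 counts over the young libraries, at 5.24, 19.4 and 10.0 FPKM, and 0 in each mature library, so it was at least 348-fold lower when the 3 mature libraries together are given a floor of 3 counts. The antenna genes Aco003394 and Aco018510 fell from means of 7.71 to 0.661 FPKM and 16.5 to 1.87 FPKM. In the other direction, Aco005078, annotated as ferredoxin-NADP+ reductase, an enzyme with forms in both green and non-green plastids, rose from 198 ± 39.7 to 379 ± 27.1 FPKM (SD, n = 3; log2 fold change 1.21 ± 0.18, adjusted p = 0.00945). At 90 DAF these genes were uneven: Aco006719 measured 77.9, 607 and 48.1 FPKM and Aco017705 71.9, 312 and 26 FPKM, with replicate 2 highest, and that library adds to the spread on which their tests rest. The number of the map's genes called lower was 2, 1 and 2 without 60 DAF replicates 1, 2 and 3 in turn, 9, 24 and 16 without those of 90 DAF, and 1, 4 and 2 without those of 120 DAF. Aco001181 and Aco005078 kept their calls without any 1 library. Aco017705 lost its call without 60 DAF replicate 2 or 120 DAF replicates 1, 2 or 3 (adjusted p of up to 0.0642). Aco006719, Aco008684, Aco003394 and Aco018510 lost their calls without 60 DAF replicates 1, 2 or 3 or 120 DAF replicates 1 or 3, and some also without 120 DAF replicate 2 (adjusted p of up to 0.131). Aco008684 and Aco001181 overlap another gene model.

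Some enzymes of carbon fixation fell as well. The whole carbon fixation map shares many enzymes with other pathways. Of its 59 tested members, 5 were called higher and 4 lower at 120 DAF, with a median log2 fold change of -0.06. With total counts 1 was higher and 9 lower, with a median of -0.33 against -0.29 for all genes. The direction of the map as a whole thus depended on the scaling. Of 5 tested genes for enzymes found only in the Calvin cycle, 3 were lower and none was higher (0 higher by DESeq2 and 0 with unadjusted p under 0.05), with a median log2 fold change of -4.13, and the lower count was 0 to 4 with 1 library left out, lowest without 60 DAF replicates 1, 2 or 3 or 120 DAF replicates 1, 2 or 3. Aco014119, the chloroplast sedoheptulose-1,7-bisphosphatase that regenerates the carbon dioxide acceptor, measured 22.5, 59.9 and 37.9 FPKM at 60 DAF and 0.495, 0.645 and 0.0553 FPKM at 120 DAF (log2 fold change -6.34 ± 1.36, adjusted p = 0.0288). Every mature library was under 1 FPKM, and the young libraries were all above 20. For the plastid glyceraldehyde-3-phosphate dehydrogenase genes Aco016173 and Aco011924, which reduce the fixed carbon, means went from 29.7 to 1.84 FPKM and from 13.9 to 0.636 FPKM (log2 fold changes -3.71 ± 0.85 and -4.13 ± 1.04). Aco014119, Aco016173 and Aco011924 lost their calls without 60 DAF replicates 1, 2 or 3 or 120 DAF replicates 1, 2 or 3, and some also without 90 DAF replicate 1 (adjusted p of up to 0.128).

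Those chlorophyll genes that were called fell in synthesis and rose in breakdown. Of 13 tested genes from magnesium chelatase onwards, 3 fell and none rose (0 higher by DESeq2 and 0 with unadjusted p under 0.05), with a median of -1.19, and of 8 genes of breakdown, 3 rose and none fell (0 lower by DESeq2 and 0 with unadjusted p under 0.05), with a median of 0.78, and 0.50 with total counts. The first count was 1 to 8 with 1 library left out, lowest without 120 DAF replicate 3, and the second was 0 to 4 with 1 library left out, lowest without 60 DAF replicates 2 or 3. Protochlorophyllide reductase, Aco007648, which makes the light-driven step to chlorophyll, measured 55.2, 103 and 93.5 FPKM at 60 DAF and 2.1, 1.34 and 3 FPKM at 120 DAF. The mature values were all under 4 FPKM and the young values all over 50 (log2 fold change -4.98 ± 0.67, adjusted p = 0.00742). The magnesium chelatase subunit gene Aco020178 fell from 18.9 ± 9.53 to 0.65 ± 0.603 FPKM (SD, n = 3; log2 fold change -4.59 ± 0.80) and the cyclase gene Aco001729 from 53.4 ± 18.3 to 12.3 ± 2.45 FPKM (log2 fold change -1.83 ± 0.39). Chlorophyll b reductase, Aco000337, which starts the removal of chlorophyll b from antennae, gave 66.4, 60.2 and 57.9 FPKM at 60 DAF and 150.3, 105 and 186 FPKM at 120 DAF (log2 fold change 1.55 ± 0.25, adjusted p = 0.0117). Pheophorbide a oxygenase, Aco022956, which opens the chlorophyll ring, gave 59.1, 50.8 and 44.4 FPKM at 60 DAF and 88.2, 132 and 88.5 FPKM at 120 DAF (log2 fold change 1.27 ± 0.27, adjusted p = 0.0273). Neither gene overlapped between ages. The third called gene, Aco011588, is described in the table as the import protein TIC55 and shares only the ortholog of the oxygenase. Its adjusted p was just under the threshold. The most abundant gene of the list, Aco013139, of the stay-green family, measured 169, 69.8 and 130.1 FPKM at 60 DAF and 551, 337 and 292 FPKM at 120 DAF, but with its spread at both ages it was not called (adjusted p = 0.0697). Aco007648 kept its call without any 1 library. Aco020178, Aco001729 and Aco000337 each lost their calls without at least 1 of 60 DAF replicates 2 or 3 or 120 DAF replicates 1, 2 or 3 (adjusted p of up to 0.0977). Aco022956 and Aco011588 lost their calls without 60 DAF replicates 1, 2 or 3 or 120 DAF replicates 1, 2 or 3, and some also without 90 DAF replicate 1 (adjusted p of up to 0.149). With total counts Aco011588 was not called, at a log2 fold change of 1.55. Aco020178 and Aco013139 overlap another gene model.

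Carotenoid genes moved singly. In the map, of 43 tested members, 3 were called higher and 2 lower at 120 DAF, with a median log2 fold change of -0.12, and the 5 called genes are 11.6% of the list, near the share of all genes. The higher count was 2 to 3 with 1 library left out, lowest without 60 DAF replicates 1, 2 or 3 or 120 DAF replicates 1 or 3. Phytoene synthase, the entry enzyme of the pathway, was among those that rose, with 4.58, 5.04 and 7.02 FPKM at 60 DAF and 38.6, 39 and 41.4 FPKM at 120 DAF for Aco005022. The mature libraries lay within 3 FPKM of each other and above every young library (log2 fold change 3.12 ± 0.37, adjusted p = 0.00581). Zeaxanthin epoxidase, Aco017933, which makes violaxanthin, rose from 6.66 ± 0.945 to 23.4 ± 1.82 FPKM (SD, n = 3; log2 fold change 2.09 ± 0.44, adjusted p = 0.0274). Aco005022 kept its call without any 1 library. Aco017933 lost its call without 60 DAF replicates 1, 2 or 3 or 120 DAF replicates 1 or 3 (adjusted p of up to 0.107).

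In the flavonoid and anthocyanin list, of 32 tested members, 0 were called higher and 8 lower at 120 DAF (2 higher by DESeq2 and 5 with unadjusted p under 0.05), with a median log2 fold change of -0.41. Chalcone synthase, the first committed enzyme, was measured at 69.4, 125 and 74 FPKM at 60 DAF and 0, 0 and 0.788 FPKM at 120 DAF for Aco016200. It was at 0 in 2 of the 3 mature libraries (log2 fold change -8.03 ± 1.5, adjusted p = 0.0188). Of the chalcone isomerases, which close the flavanone ring, Aco012547 fell from 111 ± 23.3 to 2.47 ± 1.91 FPKM and Aco014232 from 51.4 ± 19.3 to 10.5 ± 5.01 FPKM (SD, n = 3; log2 fold changes -5.23 ± 0.78 and -2.01 ± 0.49). The flavanone 3-hydroxylase ortholog Aco018609 had 1017 counts over the young libraries and 0 over the mature ones, at least 329-fold lower. Outside the list, Aco018386, a glutathione S-transferase, a family with members that carry anthocyanin to the vacuole in other plants, was at 47.5, 129.9 and 53.6 FPKM at 60 DAF and at 0 in every mature library, at least 2001-fold lower. The number of flavonoid genes called lower was 8, 4 and 6 without 60 DAF replicates 1, 2 and 3 in turn, 8, 9 and 8 without those of 90 DAF, and 5, 8 and 7 without those of 120 DAF. Aco012547, Aco018609 and Aco018386 kept their calls without any 1 library. Aco016200 and Aco014232 lost their calls without 60 DAF replicates 2 or 3 or 120 DAF replicate 1, and some also without 120 DAF replicate 3 (adjusted p of up to 0.124). Aco018609 overlaps another gene model.

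**Figure D3:**
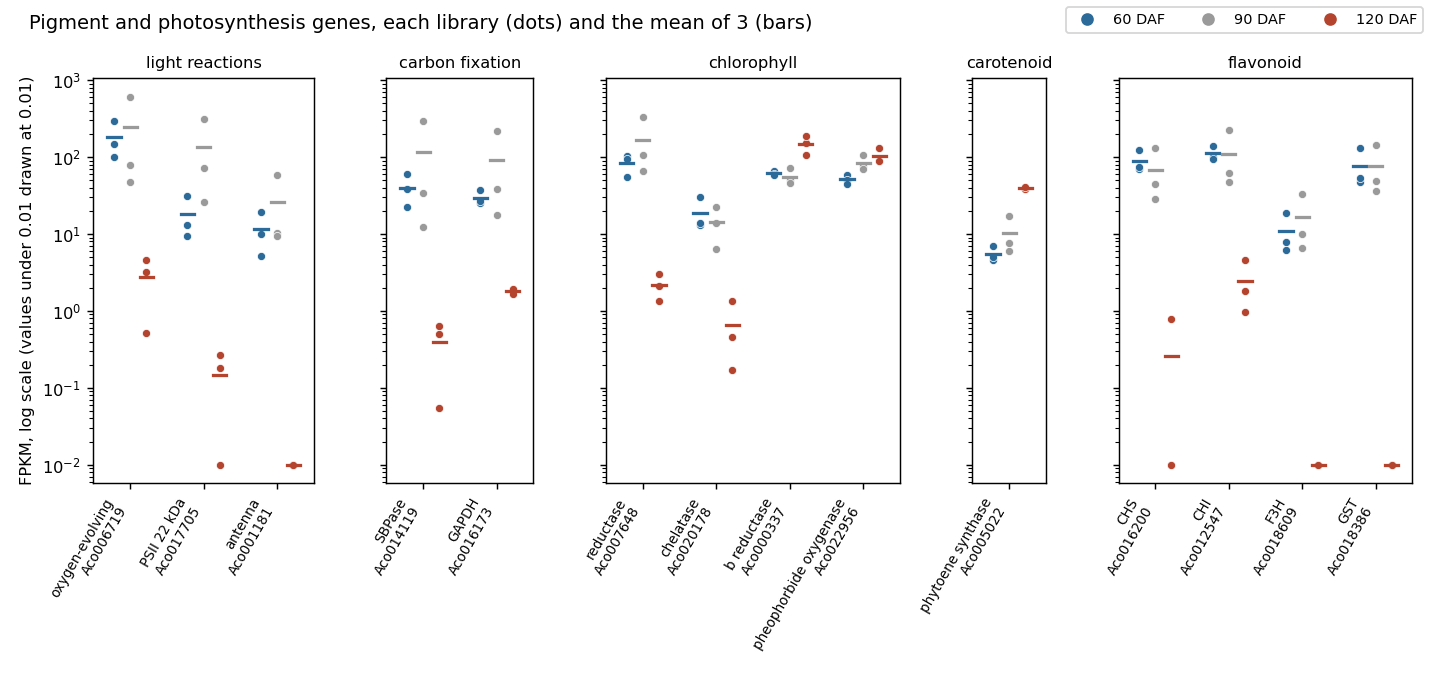
FPKM on a log scale of pigment and photosynthesis genes in each library at 60 DAF (blue), 90 DAF (grey) and 120 DAF (red), with a bar at the mean of 3 libraries and values under 0.01 drawn at 0.01. The light-reaction, carbon-fixation, chlorophyll-synthesis and flavonoid genes are lowest at 120 DAF, while chlorophyll b reductase, pheophorbide oxygenase and phytoene synthase have a higher mean at 120 than at 60 DAF.

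Some early phenylpropanoid genes rose, and genes of later steps moved both ways. Of 14 entry enzymes, 3 rose and none fell (0 lower by DESeq2 and 1 with unadjusted p under 0.05), with a median of 0.66, and 0.38 with total counts. The higher count was 2 to 3 with 1 library left out, lowest without 60 DAF replicates 2 or 3 or 120 DAF replicates 1, 2 or 3. Phenylalanine ammonia-lyase, which removes the amino group of phenylalanine, was called for Aco020618, at 2.82, 3.11 and 1.67 FPKM at 60 DAF and 34.9, 11.5 and 21.3 FPKM at 120 DAF (log2 fold change 3.44 ± 0.46, adjusted p = 0.00715). The lowest mature library was over 3 times the highest young one. The 4-coumarate:CoA ligase genes Aco019974 and Aco019975, neighbours on contig 9, rose from 13.5 ± 5.23 to 59.8 ± 3.66 FPKM and from 40.8 ± 23.4 to 116 ± 7.71 FPKM (SD, n = 3; log2 fold changes 2.42 ± 0.35 and 1.78 ± 0.41). In the monolignol list, whose enzymes make lignin precursors, of 47 tested members, 6 were called higher and 3 lower at 120 DAF, with a median log2 fold change of 0.52. With total counts 3 were higher and 4 lower with a median of 0.23, and the higher count was 0 to 9 with 1 library left out, lowest without 60 DAF replicate 2. Cinnamyl alcohol dehydrogenase Aco006590 measured 9.44, 3.98 and 1.99 FPKM at 60 DAF and 389.9, 102 and 737 FPKM at 120 DAF (log2 fold change 6.60 ± 1.04, adjusted p = 0.0109). Its mature libraries differed by about 7-fold among themselves, and all were above every young one. A more abundant gene of the same enzyme, Aco030435, gave 429, 257 and 396 FPKM at 60 DAF and 790.5, 481 and 774 FPKM at 120 DAF (log2 fold change 1.20 ± 0.31, adjusted p = 0.0473), and the cinnamoyl-CoA reductase gene Aco015695 gave 131, 184 and 193 FPKM at 60 DAF and 466, 597 and 376 FPKM at 120 DAF (log2 fold change 1.78 ± 0.44, adjusted p = 0.0422). Hydroxycinnamoyltransferase genes went both ways, with Aco012071 rising from 77.4 to 283 FPKM and Aco005277 and Aco002136 falling from 53.6 to 7.15 FPKM and 5.96 to 0.282 FPKM. Aco020618 and Aco019974 kept their calls without any 1 library. Aco019975, Aco006590 and Aco002136 each lost their calls without at least 1 of 60 DAF replicates 2 or 3 or 120 DAF replicates 1, 2 or 3 (adjusted p of up to 0.131). Aco030435, Aco015695, Aco012071 and Aco005277 lost their calls without 60 DAF replicates 1, 2 or 3 or 120 DAF replicate 1, and some also without 90 DAF replicate 1 or 120 DAF replicates 2 or 3 (adjusted p of up to 0.152). With total counts Aco030435 and Aco015695 were not called, at log2 fold changes of 0.92 and 1.5. Aco030435 overlaps another gene model.

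Class III peroxidases, which oxidise phenolics in the wall and can cross-link lignin, had more falls than rises. In this family, of 45 tested members, 1 was called higher and 9 lower at 120 DAF, with a median log2 fold change of -1.01, and the median was -0.43 among members with at least 5 FPKM in 3 libraries. The most abundant of those that fell, Aco021355, measured 146, 396 and 155 FPKM at 60 DAF and 16.7, 59.5 and 9.36 FPKM at 120 DAF (log2 fold change -2.77 ± 0.69, adjusted p = 0.0431). The highest mature value was below the lowest young value. Aco020332 fell further, from 20.2 ± 14.5 to 0.218 ± 0.199 FPKM (SD, n = 3; log2 fold change -6.16 ± 1.09). Of the peroxidases, the number called lower was 7, 5 and 4 without 60 DAF replicates 1, 2 and 3 in turn, 7, 9 and 9 without those of 90 DAF, and 3, 9 and 4 without those of 120 DAF. Aco020332 lost its call without 60 DAF replicate 2 or 120 DAF replicate 1 (adjusted p of up to 0.0619). Aco021355 lost its call without 60 DAF replicates 1, 2 or 3 or 90 DAF replicate 1 or 120 DAF replicates 1 or 3 (adjusted p of up to 0.141). Aco021355 and Aco020332 overlap another gene model.

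A small set of transferase, synthase and oxidase genes went from near-absence to high levels. Of 10 genes of the ortholog named for resveratrol O-methyltransferase, which adds methyl groups to phenolics, 2 rose and 3 fell, and the lower count was 1 to 6 with 1 library left out, lowest without 120 DAF replicate 1. Aco030461 measured 2.72, 2.01 and 1.3 FPKM at 60 DAF and 1291, 429 and 1314 FPKM at 120 DAF (log2 fold change 9.26 ± 1.10, adjusted p = 0.00581). Every young library was under 3 FPKM and the lowest mature one was over 100 times that. Its called partner Aco022812 begins at the same position of contig 4 on the same strand, so these are overlapping models of 1 locus, and its 11.8, 67.1 and 18.1 FPKM at 120 DAF are not separate evidence. The members that fell, Aco018058, Aco020649 and Aco021871, went from means of 4.08 to 0.0231 FPKM, 43.9 to 7.79 FPKM and 5.96 to 0.22 FPKM. Aco018929, assigned to a sesquiterpene synthase of the humulene and caryophyllene type, measured 4.57, 10.9 and 8.02 FPKM at 60 DAF and 1757, 942 and 1441 FPKM at 120 DAF. The mature libraries were all far above the young ones (log2 fold change 7.76 ± 1.95, adjusted p = 0.0444). The other tested gene of that ortholog, Aco028174, measured 4.43, 1.11 and 1.61 FPKM at 60 DAF and 1530, 1062 and 1251 FPKM at 120 DAF and was just short of the threshold (adjusted p = 0.0531), though it was called with total counts. At 90 DAF both were high in replicate 1 alone, at 92.5, 0.625 and 0.865 and 221, 0.35 and 0.834 FPKM. Chosen after their values were seen, the acyltransferase-type gene Aco026975 gave 0.859, 0.473 and 1.86 FPKM at 60 DAF and 688, 566 and 1102 FPKM at 120 DAF (log2 fold change 9.81 ± 1.13, adjusted p = 0.00534), and the monooxygenase Aco013290 gave 0.372, 0.114 and 0 FPKM at 60 DAF and 368, 198 and 369 FPKM at 120 DAF (log2 fold change 11.12 ± 1.78, adjusted p = 0.0113). Neither overlapped between ages. A gene with no annotation, Aco000051, also chosen after its values were seen, went from 8.3 ± 6.47 to 1738 ± 793 FPKM (SD, n = 3; log2 fold change 7.99 ± 1.97, adjusted p = 0.0421). Aco030461, Aco018058 and Aco026975 kept their calls without any 1 library. Aco020649 and Aco013290 each lost their calls without at least 1 of 60 DAF replicate 2 or 120 DAF replicate 1 (adjusted p of up to 0.059). Aco022812, Aco021871, Aco018929 and Aco000051 lost their calls without 60 DAF replicates 1, 2 or 3 or 120 DAF replicates 1 or 3, and some also without 90 DAF replicate 1 or 120 DAF replicate 2 (adjusted p of up to 0.147). Aco030461, Aco022812, Aco021871 and Aco026975 overlap another gene model.

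Called genes of pectin breakdown included rises and falls. Polygalacturonases cut the pectin backbone, pectin methylesterases remove its methyl groups and pectate lyases cleave the demethylated chain. Of 20 polygalacturonase genes, 2 rose and 2 fell. Aco012764 had the second largest log2 fold change named here among the genes that rose, measuring 0.0936, 0.386 and 0.517 FPKM at 60 DAF and 649, 154 and 401 FPKM at 120 DAF (log2 fold change 10.49 ± 1.19, adjusted p = 0.00521). The values spread over 4-fold at 120 DAF, but none was near the young range. Aco000778 rose less, from 9.35 ± 2.31 to 30.4 ± 8.88 FPKM (SD, n = 3; log2 fold change 2.0 ± 0.31). The called lower genes Aco015507 and Aco027461 share the same start and end on contig 4 and are 1 locus, at 25.4, 27.9 and 25.8 FPKM at 60 DAF and 6.53, 5.89 and 6.12 FPKM at 120 DAF for the first (log2 fold change -1.81 ± 0.20, adjusted p = 0.0049). None of 16 pectin methylesterase genes rose (1 higher by DESeq2 and 2 with unadjusted p under 0.05) and 3 fell, the lower count being 2 to 3 with 1 library left out, lowest without 60 DAF replicates 1, 2 or 3 or 90 DAF replicate 1 or 120 DAF replicates 1 or 3. Among them was Aco019529, at 30.8, 47.3 and 35.7 FPKM at 60 DAF and 0, 0.589 and 0 FPKM at 120 DAF. It was at 0 in 2 mature libraries (log2 fold change -7.23 ± 1.24, adjusted p = 0.0144), and its GO term is enzyme inhibitor activity rather than the esterase. Of the 6 pectate lyases, 1 was called, Aco014640, which fell from 10.3 ± 0.277 to 0.894 ± 0.547 FPKM (SD, n = 3; log2 fold change -3.26 ± 0.36). Aco012764, Aco000778, Aco015507, Aco027461, Aco019529 and Aco014640 kept their calls without any 1 library. Aco012764, Aco015507, Aco027461 and Aco014640 overlap another gene model.

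Glucan and mannan enzymes moved both ways as well. Among endoglucanases, which cut cellulose-type chains, of 12 tested members, 2 were called higher and 3 lower at 120 DAF, with a median log2 fold change of 0.43, and 0.13 with total counts. Aco022032 rose, at 16.4, 17.8 and 29.4 FPKM at 60 DAF and 99.96, 68.4 and 58.8 FPKM at 120 DAF (log2 fold change 2.12 ± 0.35, adjusted p = 0.0121), and Aco009636 fell, at 51.4, 69.6 and 69.9 FPKM at 60 DAF and 3.15, 12.6 and 3.11 FPKM at 120 DAF (log2 fold change -3.08 ± 0.55, adjusted p = 0.0163). The ranges of the ages did not overlap for either gene. The lower count was 1 to 3 with 1 library left out, lowest without 60 DAF replicates 2 or 3 or 120 DAF replicate 1. Aco001669 fell from 12.2 to 1.03 FPKM. A mannanase, Aco006198, chosen after its values were seen, rose from 74.6 ± 37.9 to 551 ± 112 FPKM (SD, n = 3; log2 fold change 3.18 ± 0.71, adjusted p = 0.0323). Of 9 beta-galactosidases, which trim galactose from wall polymers, 3 fell and none rose (0 higher by DESeq2 and 2 with unadjusted p under 0.05), and the lower count was 2 to 3 with 1 library left out, lowest without 60 DAF replicates 2 or 3 or 120 DAF replicates 1 or 3. Among 30 beta-glucosidases, 2 rose and 7 fell, while the median was 0.18, and -0.11 with total counts. The lower count was 2 to 8 with 1 library left out, lowest without 60 DAF replicates 2 or 3 or 120 DAF replicate 3. Aco021020, one of those that rose, measured 30.6, 27.4 and 15.5 FPKM at 60 DAF and 673, 79.7 and 376 FPKM at 120 DAF (log2 fold change 4.24 ± 0.99, adjusted p = 0.0374), and its close neighbour on contig 16, Aco021018, chosen after its values were seen, fell from 14.1 ± 3.87 to 1.83 ± 0.601 FPKM (SD, n = 3; log2 fold change -2.67 ± 0.39, adjusted p = 0.00879). TBL33, Aco001801, of the family that acetylates wall polysaccharides in *Arabidopsis*, was also chosen after its values were seen and measured 64.2, 29.4 and 84.9 FPKM at 60 DAF and 0.929, 0.392 and 0.763 FPKM at 120 DAF (log2 fold change -6.12 ± 0.58, adjusted p = 0.00356). It was under 1 FPKM in every mature library. Aco001669, Aco021018 and Aco001801 kept their calls without any 1 library. Aco022032 and Aco009636 lost their calls without 60 DAF replicate 2, and some also without 60 DAF replicate 3 or 120 DAF replicate 1 (adjusted p of up to 0.0573). Aco006198 and Aco021020 lost their calls without 60 DAF replicates 1, 2 or 3 or 120 DAF replicates 1 or 3 (adjusted p of up to 0.128). Aco021020 and Aco021018 overlap another gene model.

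A larger share of microtubule genes was lower than in any other list of at least 50 genes described here. Microtubules guide the laying down of cellulose and pull chromosomes apart, and kinesins are motors that walk along them. Over tubulins, kinesins and other microtubule-binding genes, of 77 tested members, 1 was called higher and 22 lower at 120 DAF, with a median log2 fold change of -0.56. All 6 called tubulins among 18 were lower, and 17 of the 18 had a negative log2 fold change. The number of tubulins called lower was 3, 3 and 2 without 60 DAF replicates 1, 2 and 3 in turn, 4, 6 and 6 without those of 90 DAF, and 3, 3 and 3 without those of 120 DAF. The beta-tubulin gene Aco007228 measured 6.5, 9 and 6.59 FPKM at 60 DAF and 0.96, 0.811 and 1.14 FPKM at 120 DAF. The mature values were near 1 FPKM in each library (log2 fold change -2.61 ± 0.38, adjusted p = 0.00879). Aco024265, a beta-tubulin chosen after its values were seen, fell from 3.5 ± 0.625 to 0.22 ± 0.0691 FPKM (SD, n = 3; log2 fold change -3.63 ± 0.36), and the alpha-tubulin Aco023603 from 38.4 ± 2.68 to 13.7 ± 0.866 FPKM (SD, n = 3; log2 fold change -1.20 ± 0.22). The microtubule-binding gene Aco019983 measured 18.7, 18.9 and 20.3 FPKM at 60 DAF and 2.19, 3.83 and 1.99 FPKM at 120 DAF (log2 fold change -2.58 ± 0.28, adjusted p = 0.0049). The lowest young value was over 4 times the highest mature one. Of 33 motor genes, 10 fell and 1 rose, the first count being 3 to 13 with 1 library left out, lowest without 120 DAF replicates 1 or 3. Aco006411 fell from 17 to 3.98 FPKM, and the exception, Aco017172, described as phragmoplast orienting kinesin 1, which places the division plane in *Arabidopsis*, gave 3.04, 1.95 and 1.66 FPKM at 60 DAF and 6.73, 25.9 and 7.6 FPKM at 120 DAF (log2 fold change 2.84 ± 0.62, adjusted p = 0.0303). The lower count of the whole list was 16, 11 and 12 without 60 DAF replicates 1, 2 and 3 in turn, 18, 26 and 25 without those of 90 DAF, and 10, 22 and 11 without those of 120 DAF. Of 50 genes of DNA replication, edgeR called 0, with 6 at an unadjusted p under 0.05 and a median of 0.04, and DESeq2 called 1 higher and 1 lower. Aco007228, Aco024265, Aco019983 and Aco006411 kept their calls without any 1 library. Aco023603 lost its call without 60 DAF replicates 2 or 3 or 120 DAF replicates 1 or 3 (adjusted p of up to 0.0643). Aco017172 lost its call without 60 DAF replicates 1, 2 or 3 (adjusted p of up to 0.115). Aco007228, Aco024265, Aco023603, Aco019983 and Aco017172 overlap another gene model.

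**Figure D4:**
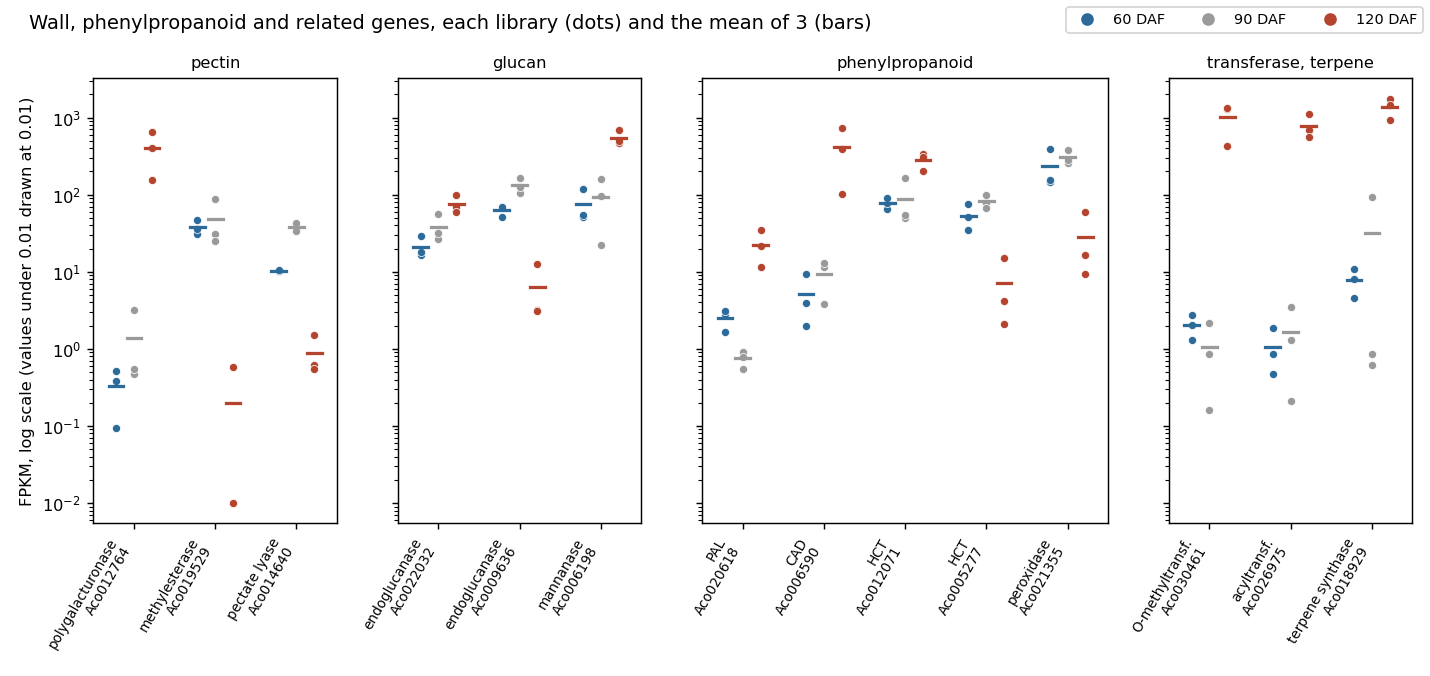
FPKM on a log scale of wall, phenylpropanoid, transferase and terpene synthase genes in each library at 60 DAF (blue), 90 DAF (grey) and 120 DAF (red), with a bar at the mean of 3 libraries and values under 0.01 drawn at 0.01. The O-methyltransferase, acyltransferase, terpene synthase and polygalacturonase genes stand above 100 FPKM in every library of 120 DAF and under 11 in every library of 60 DAF.

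In the cutin, suberine and wax map, of 35 tested members, 1 was called higher and 6 lower at 120 DAF, with a median log2 fold change of -0.34. The split was less one-sided by DESeq2, with 7 higher and 8 lower, and by limma and on the 6 libraries, each with 5 higher and 7 lower. Aco014598, assigned to a fatty acid hydroxylase, measured 18.4, 19.9 and 35.4 FPKM at 60 DAF and 1.91, 1.69 and 1.13 FPKM at 120 DAF, with no overlap between ages (log2 fold change -3.67 ± 0.53, adjusted p = 0.00879). The omega-hydroxypalmitate feruloyl transferase ortholog Aco020567, which adds ferulate to suberin-type monomers, fell from 7.74 ± 1.33 to 0.468 ± 0.304 FPKM, and the fatty acyl-CoA reductase Aco000892, which makes wax alcohols, from 12.1 ± 6.75 to 1.18 ± 0.477 FPKM (SD, n = 3; log2 fold changes -3.72 ± 0.52 and -3.07 ± 0.78). Aco013914, a long-chain fatty acid omega-monooxygenase, was the most abundant of those that fell, at 172, 166 and 132 FPKM at 60 DAF and 65.9, 48 and 34.9 FPKM at 120 DAF (log2 fold change -1.38 ± 0.32, adjusted p = 0.0357). The gene that edgeR called higher, Aco011763, is an omega-hydroxylase of the CYP86A group that makes cutin monomers, at 1.45, 1.38 and 0.57 FPKM at 60 DAF and 16.2, 7.72 and 10.4 FPKM at 120 DAF (log2 fold change 3.60 ± 0.69, adjusted p = 0.0204). The number of the map's genes called lower was 2, 2 and 2 without 60 DAF replicates 1, 2 and 3 in turn, 4, 8 and 6 without those of 90 DAF, and 2, 3 and 2 without those of 120 DAF. Aco014598 and Aco020567 kept their calls without any 1 library. Aco000892, Aco013914 and Aco011763 lost their calls without 60 DAF replicates 1, 2 or 3 or 120 DAF replicates 1 or 3, and some also without 90 DAF replicate 1 or 120 DAF replicate 2 (adjusted p of up to 0.137). Aco000892 overlaps another gene model.

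Sucrose and starch genes changed one by one. Sucrose synthase, which splits sucrose for use in walls and starch, had 5 tested genes, of which Aco009508 measured 99, 208 and 105 FPKM at 60 DAF and 7.31, 21.9 and 7.01 FPKM at 120 DAF (log2 fold change -3.24 ± 0.51, adjusted p = 0.0109) and Aco024370 measured 19.8, 29.4 and 20.4 FPKM at 60 DAF and 44, 106 and 64.3 FPKM at 120 DAF (log2 fold change 1.89 ± 0.37, adjusted p = 0.0212). These 2 genes moved in opposite directions, without overlap of the ages in either. The most abundant one, Aco006349, at 497, 659.5 and 700.0 FPKM at 60 DAF and 508, 458 and 427 FPKM at 120 DAF, was not called (log2 fold change -0.13 ± 0.37, adjusted p = 0.864). Among 22 starch synthesis genes, 2 fell and none rose (0 higher by DESeq2 and 1 with unadjusted p under 0.05). They were the granule-bound starch synthase Aco023992, which makes amylose, at 324, 209 and 369 FPKM at 60 DAF and 52.3, 95 and 49 FPKM at 120 DAF (log2 fold change -1.93 ± 0.42, adjusted p = 0.0295), and the ADP-glucose pyrophosphorylase gene Aco006199, which makes its substrate, from 16.9 ± 1.15 to 1.76 ± 1.51 FPKM (SD, n = 3; log2 fold change -3.01 ± 0.63). That share, 9.09%, is near the background of all genes, and the count was 0 to 5 with 1 library left out, lowest without 60 DAF replicates 1, 2 or 3 or 120 DAF replicates 1 or 3. Among 50 starch breakdown genes, 1 rose and 2 fell, and these 6% are under the 9.47% of all genes. The plastid alpha-amylase 3 gene Aco005712 was the one that rose, at 147, 172 and 223 FPKM at 60 DAF and 649, 433 and 509 FPKM at 120 DAF (log2 fold change 1.84 ± 0.29, adjusted p = 0.0109). Of the 2 that fell, the alpha-glucan phosphorylase Aco008511 went from 234 ± 17.9 to 81.1 ± 16.8 FPKM (SD, n = 3; log2 fold change -1.25 ± 0.27). Trehalose-phosphate synthase Aco012107, whose product signals sugar status, rose from 34.1 ± 8.4 to 189.5 ± 72.1 FPKM, and the sucrose transporter SUC4, Aco000269, chosen after its values were seen, from 32.4 ± 6.9 to 76 ± 8.65 FPKM (SD, n = 3; log2 fold changes 2.76 ± 0.58 and 1.51 ± 0.27). In the glycolysis map, of 126 tested members, 7 were called higher and 7 lower at 120 DAF, with a median log2 fold change of 0.07. That share, 11.1%, is near the 9.47% of all genes. With total counts 4 were higher and 12 lower with a median of -0.21. The higher count was 2 to 15 with 1 library left out, lowest without 60 DAF replicates 2 or 3 or 120 DAF replicates 1 or 3, and the lower count 1 to 11 with 1 library left out, lowest without 120 DAF replicates 1 or 3. The pyrophosphate-dependent phosphofructokinase Aco000731 was among those that fell, at 247, 312 and 274 FPKM at 60 DAF and 50.8, 52.3 and 37 FPKM at 120 DAF (log2 fold change -2.29 ± 0.35, adjusted p = 0.00976). Aco009508 and Aco000731 kept their calls without any 1 library. Aco005712 and Aco000269 lost their calls without 60 DAF replicate 2, and some also without 60 DAF replicate 1 or 120 DAF replicate 1 (adjusted p of up to 0.0675). Aco024370, Aco023992, Aco006199, Aco008511 and Aco012107 lost their calls without 60 DAF replicates 1, 2 or 3 or 120 DAF replicate 3, and some also without 120 DAF replicate 1 (adjusted p of up to 0.106). Aco024370 and Aco023992 overlap another gene model.

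Several genes of nitrate reduction and ammonium assimilation rose. In the nitrogen metabolism map, of 26 tested members, 6 were called higher and 0 lower at 120 DAF (1 lower by DESeq2 and 2 with unadjusted p under 0.05), with a median log2 fold change of 0.44, against 3 higher and 1 lower with total counts, where the median was 0.15 and that of all genes -0.29. Nitrite reductase, Aco002692, which makes ammonium in the plastid, measured 165, 176 and 150.3 FPKM at 60 DAF and 477, 619 and 492 FPKM at 120 DAF, with every mature library above every young one (log2 fold change 1.97 ± 0.33, adjusted p = 0.0136). Glutamine synthetase, Aco018423, which fixes ammonium, measured 137, 176 and 95.4 FPKM at 60 DAF and 546, 435 and 734 FPKM at 120 DAF (log2 fold change 2.36 ± 0.29, adjusted p = 0.00593), again without overlap. The nitrate reductase genes Aco003572 and Aco030299 rose less, with log2 fold changes of 1.35 ± 0.35 and 0.97 ± 0.22, and another called gene, Aco007554, has the same start and end as Aco030299 and is the same locus. Asparagine synthetase, which moves nitrogen onto asparagine for storage and transport, went the other way. Aco012475 measured 1222, 1172 and 1705 FPKM at 60 DAF and 18.5, 102 and 15.7 FPKM at 120 DAF (log2 fold change -4.67 ± 0.81, adjusted p = 0.0146), and Aco002960 had 3989 counts over the young libraries, at 15, 94.1 and 151 FPKM, and 0 over the mature ones, at least 1292-fold lower. The other 2 tested genes of this enzyme were not called. The higher count of the map was 3, 1 and 2 without 60 DAF replicates 1, 2 and 3 in turn, 5, 8 and 7 without those of 90 DAF, and 3, 3 and 3 without those of 120 DAF. Aco018423 and Aco002960 kept their calls without any 1 library. Aco002692 and Aco012475 each lost their calls without at least 1 of 60 DAF replicates 2 or 3 or 120 DAF replicate 1 (adjusted p of up to 0.061). Aco003572, Aco030299 and Aco007554 lost their calls without 60 DAF replicates 1, 2 or 3 or 120 DAF replicates 1, 2 or 3, and some also without 90 DAF replicate 1 (adjusted p of up to 0.161). With total counts Aco003572, Aco030299 and Aco007554 were not called, at log2 fold changes of 1.06, 0.69 and 0.61. Aco030299 and Aco007554 overlap another gene model.

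Amino acid and polyamine genes included several of high level. A branched-chain aminotransferase, Aco013356, which makes or breaks down leucine, isoleucine and valine, measured 37.3, 78.1 and 121 FPKM at 60 DAF and 908, 697 and 605 FPKM at 120 DAF (log2 fold change 3.52 ± 0.69, adjusted p = 0.0222). Glutamate decarboxylase, which makes gamma-aminobutyrate, fell for Aco002628, at 326, 429 and 492 FPKM at 60 DAF and 86.7, 130.1 and 91.2 FPKM at 120 DAF (log2 fold change -1.74 ± 0.29, adjusted p = 0.0131), and for Aco025557, chosen after its values were seen, from 29.7 ± 10.0 to 1.22 ± 0.234 FPKM (SD, n = 3; log2 fold change -4.31 ± 0.37). The ages did not overlap for any of these genes, which the naming rule required of Aco013356 and Aco002628. S-adenosylmethionine decarboxylase, Aco012091, which supplies the propyl groups of spermidine and spermine, measured 187, 185 and 85.5 FPKM at 60 DAF and 1667, 1089 and 1438 FPKM at 120 DAF (log2 fold change 3.48 ± 0.72, adjusted p = 0.0257). A copper amine oxidase, Aco003606, a type that can oxidise putrescine, measured 193, 153 and 209 FPKM at 60 DAF and 1542, 752 and 1056 FPKM at 120 DAF (log2 fold change 2.88 ± 0.58, adjusted p = 0.0235). Both stood several-fold above the young range in each mature library. Arginine decarboxylase, Aco015534, which starts putrescine synthesis, was at 41.1, 13.2 and 2.75 FPKM at 60 DAF, a wide spread, and at 0 in every library of 90 and 120 DAF, at least 1529-fold lower at 120 DAF (adjusted p = 0.0358). Aco025557 kept its call without any 1 library. Aco002628 and Aco015534 lost their calls without 60 DAF replicate 2 or 120 DAF replicates 1 or 3, and some also without 60 DAF replicates 1 or 3 or 120 DAF replicate 2 (adjusted p of up to 0.108). Aco013356, Aco012091 and Aco003606 lost their calls without 60 DAF replicates 1, 2 or 3 or 120 DAF replicates 1 or 3 (adjusted p of up to 0.0977). Aco025557 overlaps another gene model.

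**Figure D5:**
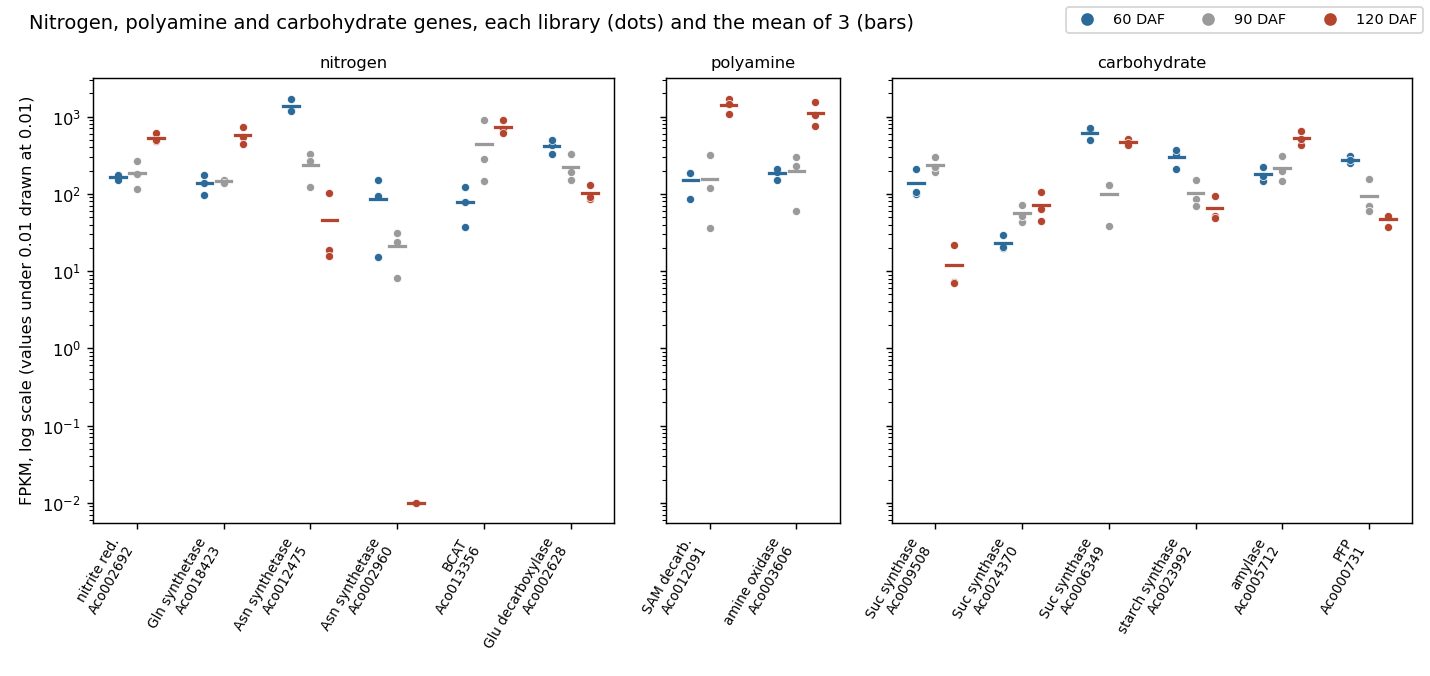
FPKM on a log scale of nitrogen, polyamine and carbohydrate genes in each library at 60 DAF (blue), 90 DAF (grey) and 120 DAF (red), with a bar at the mean of 3 libraries and values under 0.01 drawn at 0.01. Nitrite reductase and glutamine synthetase are higher at 120 than at 60 DAF and both asparagine synthetases lower, and the 3 sucrose synthase genes show a fall, a rise and no called change.

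Peroxisomes house fatty acid beta-oxidation, photorespiration and catalase. In the peroxisome map, of 116 tested members, 14 were called higher and 5 lower at 120 DAF, with a median log2 fold change of 0.14, and with total counts 7 were higher and 6 lower with a median of -0.14. Acyl-CoA oxidase Aco009577, the first enzyme of beta-oxidation, measured 68, 50.0 and 75.7 FPKM at 60 DAF and 251, 183 and 217 FPKM at 120 DAF, with the ages apart (log2 fold change 2.03 ± 0.25, adjusted p = 0.00593). Catalase genes, whose product destroys hydrogen peroxide, moved in opposite directions. Aco010626 fell, at 891, 1320 and 1320 FPKM at 60 DAF and 229, 275 and 197 FPKM at 120 DAF (log2 fold change -2.05 ± 0.36, adjusted p = 0.0155), while Aco011952 rose, at 96.2, 99.1 and 64.8 FPKM at 60 DAF and 258, 158 and 243 FPKM at 120 DAF (log2 fold change 1.63 ± 0.28, adjusted p = 0.0141), and Aco013035 rose from 83 ± 14.1 to 138 ± 35 FPKM (SD, n = 3; log2 fold change 1.03 ± 0.26). Aco010626 was the most abundant of the 3 at 60 DAF, and by 120 DAF its mean of 234 FPKM was close to the 220 FPKM of Aco011952. In the glyoxylate and dicarboxylate map, of 72 tested members, 11 were called higher and 2 lower at 120 DAF, with a median log2 fold change of 0.31, against 4 higher and 3 lower with total counts. In the citrate cycle map, of 58 tested members, 5 were called higher and 1 lower at 120 DAF, with a median log2 fold change of 0.18, a share of 10.3% near the background. With total counts the median was -0.11 and none was higher, and the higher count was 0 to 7 with 1 library left out, lowest without 60 DAF replicates 1, 2 or 3 or 120 DAF replicates 1 or 2. Citrate synthase Aco024619 measured 265, 217 and 224 FPKM at 60 DAF and 407, 399.6 and 441 FPKM at 120 DAF (log2 fold change 1.10 ± 0.25, adjusted p = 0.0339) and aconitase Aco014852 316, 269.6 and 257 FPKM at 60 DAF and 557, 649 and 530.0 FPKM at 120 DAF (log2 fold change 1.32 ± 0.30, adjusted p = 0.0343). These rises were about 2-fold, without overlap. Aco024619 has the same start and end as another gene model. The higher count of the peroxisome map was 7, 4 and 3 without 60 DAF replicates 1, 2 and 3 in turn, 11, 18 and 15 without those of 90 DAF, and 3, 8 and 4 without those of 120 DAF, and that of the glyoxylate map was 5, 2 and 2 without 60 DAF replicates 1, 2 and 3 in turn, 10, 13 and 14 without those of 90 DAF, and 2, 6 and 3 without those of 120 DAF. Aco009577 kept its call without any 1 library. Aco010626 and Aco011952 lost their calls without 60 DAF replicates 2 or 3 or 120 DAF replicate 1, and some also without 120 DAF replicate 3 (adjusted p of up to 0.0614). Aco013035, Aco024619 and Aco014852 lost their calls without 60 DAF replicates 1, 2 or 3 or 120 DAF replicates 1 or 3, and some also without 120 DAF replicate 2 (adjusted p of up to 0.139). With total counts Aco013035, Aco024619 and Aco014852 were not called, at log2 fold changes of 0.73, 0.82 and 1.04. Aco024619 overlaps another gene model.

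Hormone signalling genes were more often lower than higher. In the hormone signal transduction map, of 259 tested members, 8 were called higher (3.09%) and 29 lower (11.2%), against 4.25% and 5.22% of all genes. The lower count was 7 to 36 with 1 library left out. Abscisic acid receptors bind the hormone and release the stress and ripening response from repression, and of 5 tested, 2 fell and none rose (0 higher by DESeq2 and 0 with unadjusted p under 0.05). Aco002505 measured 26.5, 62.4 and 43.5 FPKM at 60 DAF and 0.382, 2.56 and 2.12 FPKM at 120 DAF (log2 fold change -4.40 ± 0.67, adjusted p = 0.0102), and Aco005513 measured 18.2, 41.6 and 27.1 FPKM at 60 DAF and 2.57, 2.86 and 1.57 FPKM at 120 DAF (log2 fold change -3.34 ± 0.48, adjusted p = 0.00879). Mature values were under 3 FPKM in every library. The 2 receptor calls held in each of the 19 alternatives run. Abscisic acid signalling as a whole had 2 lower and none higher of 28 tested, 7.14%. Jasmonate signalling had 2 lower and none higher of 27, 7.41%. In each of these lists 1 was higher by DESeq2 and 2 with unadjusted p under 0.05. Both shares are under the 9.47% of all genes. In auxin signalling, of 55 tested members, 1 was called higher and 9 lower at 120 DAF, with a median log2 fold change of -0.45. Among those lower were the Aux/IAA repressor Aco010797, from 229 ± 46.9 to 103 ± 12.1 FPKM, the response factor Aco011886, from 63.4 ± 14.7 to 22 ± 7.33 FPKM, and the importer Aco014099, from 35.1 ± 3.85 to 9.69 ± 2.69 FPKM (SD, n = 3; log2 fold changes -0.86 ± 0.21, -1.25 ± 0.29 and -1.56 ± 0.33). The gene that rose, Aco012374, belongs to the GH3 ortholog, whose enzymes join auxin or jasmonate to amino acids, and measured 0.418, 0.296 and 0.105 FPKM at 60 DAF and 10.4, 8.7 and 24.4 FPKM at 120 DAF (log2 fold change 5.96 ± 1.16, adjusted p = 0.022). The lower count of the auxin list was 2, 0 and 0 without 60 DAF replicates 1, 2 and 3 in turn, 5, 10 and 12 without those of 90 DAF, and 1, 6 and 0 without those of 120 DAF. Aco002505 and Aco005513 kept their calls without any 1 library. Aco010797, Aco011886, Aco014099 and Aco012374 lost their calls without 60 DAF replicates 1, 2 or 3 or 120 DAF replicates 1 or 3, and some also without 90 DAF replicate 1 or 120 DAF replicate 2 (adjusted p of up to 0.14). Aco014099 overlaps another gene model.

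Gibberellin, cytokinin and brassinosteroid genes were each few in number. Of 22 gibberellin receptor and DELLA genes, 1 rose and 4 fell, the lower count being 1 to 4 with 1 library left out, lowest without 60 DAF replicates 1, 2 or 3 or 120 DAF replicate 3. The receptor Aco005148 gave 1.17, 1.25 and 2.23 FPKM at 60 DAF and 28.3, 5.37 and 29.2 FPKM at 120 DAF (log2 fold change 4.05 ± 1.0, adjusted p = 0.043), while the DELLA-type repressor Aco002115 fell from 8.68 ± 2.73 to 0.107 ± 0.185 FPKM (SD, n = 3; log2 fold change -6.02 ± 1.34) and Aco005454 from 305 counts over the young libraries to 0, at least 98.7-fold lower. In cytokinin signalling, of 30 tested members, 1 was called higher and 4 lower at 120 DAF, with a median log2 fold change of -0.09, and the lower count was 1 to 5 with 1 library left out, lowest without 60 DAF replicates 2 or 3. The receptor kinase Aco013412 fell from 17 ± 3.06 to 2.72 ± 1.54 FPKM, and the type-A response regulator Aco000630, whose family is induced by cytokinin and dampens it, fell from 38.1 ± 3.5 to 8.98 ± 3.09 FPKM, whereas the type-B regulator Aco016830 rose from 4.08 ± 2.82 to 23.4 ± 4.17 FPKM (SD, n = 3; log2 fold changes -2.37 ± 0.49, -1.81 ± 0.26 and 2.78 ± 0.50). Ethylene signalling had 1 gene higher and none lower of 22 (2 lower by DESeq2 and 2 with unadjusted p under 0.05), under the share of all genes. Aco005454 and Aco000630 kept their calls without any 1 library. Aco016830 lost its call without 60 DAF replicate 3 or 120 DAF replicate 1 (adjusted p of up to 0.069). Aco005148, Aco002115 and Aco013412 lost their calls without 60 DAF replicates 1, 2 or 3 or 120 DAF replicate 3, and some also without 90 DAF replicate 1 or 120 DAF replicate 1 (adjusted p of up to 0.149). Aco005148 and Aco002115 overlap another gene model.

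Brassinosteroids, the steroid hormones of plants, showed rises in the synthesis map and falls in signalling. In the map, of 16 tested members, 6 were called higher and 0 lower at 120 DAF (1 lower by DESeq2 and 2 with unadjusted p under 0.05), with a median log2 fold change of 0.83, and with total counts 5 were higher and 2 lower. The higher count was 3 to 7 with 1 library left out, lowest without 60 DAF replicates 1, 2 or 3 or 120 DAF replicates 1 or 3. Despite the name of the map, 2 of the 6 belong to the CYP734A ortholog, whose enzyme inactivates brassinosteroids by oxidation, and one of them had the highest level by far. Aco005343 measured 14, 6.23 and 60.3 FPKM at 60 DAF and 2018, 1569 and 2031 FPKM at 120 DAF (log2 fold change 6.42 ± 1.68, adjusted p = 0.0497). The mature libraries differed by less than 1.5-fold, while the young ones ranged from 6.23 to 60.3 FPKM and those of 90 DAF from 6.08 to 290. A second gene of this ortholog, Aco014296, had 4 counts over the young libraries and 11.1, 2.08 and 6.89 FPKM at 120 DAF (log2 fold change 8.53 ± 1.35, adjusted p = 0.0109). Of the synthesis enzymes, the CYP90B1 gene Aco013375, chosen after its values were seen, had 7 counts over the young libraries and 1.39, 6.01 and 2.24 FPKM at 120 DAF, and Aco009902, placed by the table in the same map, rose from 31.4 ± 6.3 to 101 ± 2.52 FPKM (SD, n = 3; log2 fold change 1.96 ± 0.22, adjusted p = 0.00521). In signalling, of 30 tested members, 1 was called higher and 6 lower at 120 DAF, with a median log2 fold change of -0.31, and the lower count was 2 to 7 with 1 library left out, lowest without 60 DAF replicates 2 or 3 or 120 DAF replicate 3. Among them were 2 genes of the BRI1 receptor ortholog, Aco003668 and Aco010539, which fell from 4.84 ± 1.96 to 0.455 ± 0.236 FPKM and 12.1 ± 1.91 to 1.86 ± 0.891 FPKM (SD, n = 3; log2 fold changes -3.09 ± 0.47 and -2.42 ± 0.34). Aco014296, Aco009902, Aco003668 and Aco010539 kept their calls without any 1 library. Aco005343 and Aco013375 lost their calls without 60 DAF replicates 1, 2 or 3 or 120 DAF replicates 1, 2 or 3 (adjusted p of up to 0.152). Aco005343 overlaps another gene model.

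Genes annotated with the channel activity of aquaporins, which let water and small solutes cross membranes, had more falls than rises. In this list, of 26 tested members, 1 was called higher and 7 lower at 120 DAF, with a median log2 fold change of -1.86. Aco010390 measured 173, 198 and 321 FPKM at 60 DAF and 38.4, 35.5 and 23.4 FPKM at 120 DAF (log2 fold change -2.55 ± 0.48, adjusted p = 0.0197), and Aco012014 measured 122, 190.0 and 264 FPKM at 60 DAF and 38.9, 52.9 and 39.8 FPKM at 120 DAF (log2 fold change -1.84 ± 0.32, adjusted p = 0.0146). Their ranges at the ages were well apart. Aco014647 fell from 139 ± 76.7 to 21.5 ± 10.3 FPKM (SD, n = 3; log2 fold change -2.41 ± 0.53). The exception was Aco013293, which rose, at 96.2, 93 and 181 FPKM at 60 DAF and 635, 435 and 411 FPKM at 120 DAF (log2 fold change 2.29 ± 0.40, adjusted p = 0.0151), and by 120 DAF had the highest mean of the 4. The number of channel genes called lower was 4, 1 and 3 without 60 DAF replicates 1, 2 and 3 in turn, 5, 7 and 7 without those of 90 DAF, and 1, 5 and 4 without those of 120 DAF. Genes annotated with ADP binding, a term that in plants is carried mainly by immune receptors of the NB-ARC type, included falls and no rise, and of 93 tested members, 0 were called higher and 18 lower at 120 DAF (0 higher by DESeq2 and 0 with unadjusted p under 0.05), with a median log2 fold change of -0.51. The most abundant of these, Aco016528, measured 52.1, 74.2 and 55.8 FPKM at 60 DAF and 10.6, 16.7 and 14 FPKM at 120 DAF (log2 fold change -1.86 ± 0.31, adjusted p = 0.0128), and Aco020584 fell from 13.8 ± 2.74 to 2.93 ± 0.833 FPKM (SD, n = 3; log2 fold change -1.96 ± 0.27). Both were lower in every mature library. The count was 9, 4 and 4 without 60 DAF replicates 1, 2 and 3 in turn, 13, 25 and 20 without those of 90 DAF, and 3, 12 and 6 without those of 120 DAF. Aco020584 kept its call without any 1 library. Aco010390, Aco012014, Aco014647, Aco013293 and Aco016528 lost their calls without 60 DAF replicate 2 or 120 DAF replicate 1, and some also without 60 DAF replicates 1 or 3 or 120 DAF replicate 3 (adjusted p of up to 0.11). Aco016528 and Aco020584 overlap another gene model.

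Pineapple is known for cysteine peptidases of the bromelain type, and the most abundant gene of the peel codes for a peptidase inhibitor. In the cysteine peptidase list, of 40 tested members, 6 were called higher and 3 lower at 120 DAF, with a median log2 fold change of 0.24, against 1 higher and 4 lower with total counts, where the median was -0.04. The higher count was 0 to 7 with 1 library left out, lowest without 60 DAF replicates 1, 2 or 3 or 120 DAF replicates 1 or 3. A cluster on contig 6 fell: Aco004356 measured 1379, 2307 and 1562 FPKM at 60 DAF and 288, 438 and 216 FPKM at 120 DAF (log2 fold change -2.21 ± 0.33, adjusted p = 0.0097), Aco004358 fell from 21.8 ± 5.99 to 1.74 ± 1.34 FPKM and Aco004354 from 66 ± 32.3 to 1.93 ± 0.068 FPKM (SD, n = 3; log2 fold changes -3.38 ± 0.57 and -4.81 ± 0.73). Aco004356 is a very long model, from 2467915 to 2571943 on the contig. By contrast, Aco013510 rose, at 1286, 1087 and 1426 FPKM at 60 DAF and 2596, 2143 and 2251 FPKM at 120 DAF (log2 fold change 1.16 ± 0.22, adjusted p = 0.0196), and Aco017317 rose from 2.61 ± 1.21 to 42.3 ± 30.2 FPKM (SD, n = 3; log2 fold change 4.32 ± 0.82). The other 4 that rose carry a term for ubiquitin-dependent protein breakdown. Of 4 tested serine peptidase inhibitors, 1 was called higher and 1 lower, with log2 fold changes from -5.53 to 7.36 and a median of 1.29. Their higher count was 0 to 2 with 1 library left out. Among serine peptidase inhibitors, Aco014000 fell, at 1689, 6668 and 6417 FPKM at 60 DAF and 88.4, 152 and 24.7 FPKM at 120 DAF (log2 fold change -5.53 ± 1.0, adjusted p = 0.0168), and its neighbour on contig 4, Aco013999, the most abundant gene in the peel, was at 58373, 52374 and 60918 FPKM at 60 DAF and 127080, 125580 and 64076 FPKM at 120 DAF and was not called (log2 fold change 1.16 ± 0.34, adjusted p = 0.0692). A cysteine peptidase inhibitor, Aco029553, chosen after its values were seen, fell from 511 ± 180.2 to 57.4 ± 23.2 FPKM (SD, n = 3; log2 fold change -2.86 ± 0.67, adjusted p = 0.0367), and shares its start and end with another gene model. Aco004356 and Aco004354 kept their calls without any 1 library. Aco004358 and Aco014000 each lost their calls without at least 1 of 60 DAF replicates 2 or 3 or 120 DAF replicates 1 or 3 (adjusted p of up to 0.0695). Aco013510, Aco017317 and Aco029553 lost their calls without 60 DAF replicates 1, 2 or 3 or 120 DAF replicates 1 or 3, and some also without 120 DAF replicate 2 (adjusted p of up to 0.126). With total counts Aco013510 was not called, at a log2 fold change of 0.88. Aco029553 overlaps another gene model.

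Ribosome, spliceosome and transcription factor genes were called less often than the 9.47% of all genes, and proteasome genes about as often. Of 308 ribosome genes, 7 were higher and 2 lower, which is 2.92%, although 228 had a positive log2 fold change and the median was 0.27, and -0.01 with total counts. Fitted on the 6 compared libraries alone, 49 ribosome genes were higher and 10 lower, when 2585 genes were called in all, and without 90 DAF replicate 2 these were 54 and 10, of 2452 in all. Of 211 spliceosome genes 6 were higher and 5 lower, and of 236 transcription factor genes 6 were higher and 8 lower. On the 6 libraries these were 14 and 9, and 10 and 16. With total counts they were 2 and 11, and 4 and 23, when 1887 genes were called in all. Of 71 proteasome genes 5 were higher and 2 lower, 9.86%, against 2 higher and 5 lower with total counts. On the 6 libraries these were 17 and 3, and without 90 DAF replicate 2 they were 19 and 2. Relative to all genes called there, ribosome and proteasome genes were then called more often, not less. Outside these lists, the stress-response A/B barrel gene Aco013679 measured 257, 234 and 214 FPKM at 60 DAF and 1129, 733 and 926 FPKM at 120 DAF, with no overlap (log2 fold change 2.27 ± 0.30, adjusted p = 0.007), and the thioredoxin-type disulfide oxidoreductase Aco005296, chosen after its values were seen, measured 89.8, 69 and 63.8 FPKM at 60 DAF and 1262, 785 and 876 FPKM at 120 DAF (log2 fold change 3.99 ± 0.39, adjusted p = 0.00369). Aco013679 and Aco005296 kept their calls without any 1 library.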

How the data were processed

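RNA-seq counts were available for 9 peel libraries, 3 each at 60, 90 and 120 DAF, grouped by the age given in the labels. The authors deposited 1 table with whole-number counts per gene, not normalized, per the file headers. Per the same headers the authors also deposited FPKM per gene, in which a count of 0 is written as 0.0001 and was set to 0 here. Bowtie 0.12.2, HISAT2 2.0 and StringTie 1.3.0 are named per the submitters' processing notes. What each did, which genome build was used and whether strand was counted were not stated in the labels or headers. Positions are those of the deposited table.

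Genes that reached 1 FPKM in 3 or more of the 9 libraries were tested on the counts with edgeR 4.0.16 in R 4.3.3 (TMM scaling, quasi-likelihood fit with 1 group per age, 6 residual degrees of freedom, 120 against 60 DAF, Benjamini-Hochberg adjustment over all tested genes, threshold 0.05). Every adjusted p in the text is from edgeR, with all libraries unless one is named as left out. Errors of log2 fold changes are approximate standard errors, taken as the absolute log2 fold change over the square root of the test's F statistic. They therefore carry the same information as the p-value. The alternatives used limma 3.58.1 on log2(FPKM + 1) and log2(FPKM + 0.1), DESeq2 1.42.0, other scalings, filters and designs, and each library left out in turn. Tables and figures were made with Python 3.11.15, pandas 2.3.3 and matplotlib 3.10.9, and the fit was tested on simulated data with known changes.

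Process lists came from the KEGG, GO and ortholog columns of the table. The members and lists were chosen with earlier results of these data known. Genes were named by 4 rules, which gave 365 genes: the 10 largest log2 fold changes each way with non-overlapping FPKM and at least 5 FPKM, the 10 largest differences in FPKM each way, up to 5 called genes each way and the most abundant gene of each process list, and genes at 0 counts at one age. Both the fold-change rule and the FPKM-difference rule took only called genes with an annotated name and non-overlapping FPKM. Of the 132 genes named, 119 follow the 4 rules and 13 were chosen once values had been seen. The bound for genes without counts at an age uses a floor of 3 counts over that age and covers counting error only.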

Additional observations from a re-analysis of the deposited data

How the results depend on the processing

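With 714 genes higher and 876 lower as the reference, both counts moved past 1.5 times under several settings. The higher count was 381 with total counts, 1571 by DESeq2, 465 by limma with a pseudocount of 1 and 448 with 0.1, and 1290.0 on the 6 compared libraries. The lower count was 1506 with total counts, 1820.0 by DESeq2, and 1602 and 1725 by limma. With 1 library left out the higher count ran from 135 to 1188 and the lower count from 257 to 1264, and 115 and 205 genes held in every such fit. The cause of these shifts was not tested, except that leaving out a library also removes a sample. Without the low-value filter, with a minimum of 5 FPKM, and with median-ratio or upper-quartile scaling, both counts stayed within 1.5 times. No named gene that was called reversed in any of the 19 settings, and the 4 named genes not called were left out of that count. Of the 128 named genes called, 114 remained called without the low-value filter, 118 with total counts and 126 by DESeq2, but 52 without 60 DAF replicate 2.

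Replicate numbers are shared by the ages, and the labels do not say whether a number marks a shared plant, batch or day. Deviations of same-numbered libraries from the mean of their age correlated at -0.339 to 0.39 across pairs. Libraries of different numbers correlated at -0.36 to 0.31. With 3 libraries per age and ranges this alike, these values cannot decide whether the numbers pair the libraries. With the replicate number as a block, 416 genes were higher and 579 lower, and 97 of the 128 named genes remained called. The counts limit low genes most: bounds for genes at 0 cover counting error only.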

Other observations

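Some called genes of the same kind lie close together. Among called genes with the same ortholog or the same GO terms and within 3 gene models of each other, leaving out overlapping models, 17 of 19 pairs moved in the same direction and 2 moved in opposite directions. No share among other neighbouring called genes is set beside this count, so it has no reference. Some genes enter more than 1 pair, and reads of near-identical copies cannot be told apart with certainty. Tested genes without counts at a compared age were uneven in number. Of these, 78 had 0 counts in all 3 libraries of 120 DAF and 24 in all 3 libraries of 60 DAF. Counts at the other ages were not considered, so some of these genes may have had reads at the intermediate age or only there. With a mean of at least 5 FPKM at the other compared age, the numbers were 11 and 7 genes. The called genes also differed in level, with a median of 63.9 FPKM at 120 DAF among those that rose and of 12.1 FPKM at 60 DAF among those that fell.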
